A study of Mus musculus with 12 samples.

Results

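The genes described here encode potassium channels in the mouse: 87 protein-coding genes of the 55487 genes in the count table, chosen by symbol alone. A gene was a member if its symbol began with Kcna, Kcnb, Kcnc, Kcnd, Kcne, Kcnf, Kcng, Kcnh, Kcnj, Kcnk, Kcnma, Kcnmb, Kcnn, Kcnq, Kcns, Kcnt, Kcnu or Kcnv. The Kcna prefix also took in the 3 Kcnab genes, which are treated as a subfamily of their own, so that the members fell into 19 subfamilies. Pseudogenes and 2 further genes were left out by the rule.

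The study asked what loss of Mettl5, the methyltransferase that places m6A on 18S ribosomal RNA, does to mice, and total RNA was sequenced from the brain and liver of 6 animals. The labels give 3 mice as WT (B, D and E) and 3 as KO (A, C and F), and each mouse gave 1 brain and 1 liver library. The knockout is a whole-body one, from a line in which exon 2 of Mettl5 was floxed in C57bl/6 x 129S6 hybrid embryonic stem cells, backcrossed to B6 and crossed with the ubiquitous Cre deleter B6.C-Tg(CMV-cre)1Cgn/J. The labels call the controls WT, while the study text calls the controls of these RNA libraries heterozygous in some places and wild type in others, so their genotype is in doubt throughout and WT is used here only as the labels' name. The labels give no age, sex, litter or batch. The study used animals of both sexes from weaning to several months of age.

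Library totals ran from 14403309 to 21623180 counts. In the brain the potassium channel genes took 0.264% to 0.440% of all counts, against 0.0101% to 0.0142% in the liver. Mettl5, the check of the labels, lay lower in the KO libraries of both tissues. Its normalised read counts in brain were 9.09, 5.87 and 5.02 CPM in WT mice B, D and E and 3.33, 3.96 and 3.82 CPM in KO mice A, C and F, with a log2 difference of -0.84 (SE 0.27, edgeR adjusted p = 0.373), which was -0.55 without WT mouse B. In liver they were 14.9, 8.13 and 8.35 CPM in WT and 3.85, 3.64 and 4.07 CPM in KO, with a log2 difference of -1.44 (SE 0.27, edgeR adjusted p = 0.383). KO and WT libraries were fully separate in both tissues, and neither difference passed the threshold. Over the alternatives the adjusted p of Mettl5 ran from 0.0936 to 0.868 in brain, where 1 of 12 passed (edgeR with no filter on low counts), and from 4.29e-06 to 0.985 in liver, where 4 of 12 did, DESeq2 with 0.00193 among them. Mice E and F carried few Y-linked counts and many Xist counts in both tissues, so each genotype held 1 such animal. The 11 hepatocyte markers summed to 74554 to 96679 CPM in liver and to 15.7 to 40.8 CPM in brain, so the tissue labels held. Mitochondrial ribosomal RNA took 7.63% to 17.7% of the counts in WT brain and 21.4% to 31.6% in KO brain, without overlap. In liver the order was the other way, with 10.7% to 16.9% in WT and 7.36% to 8.66% in KO, again without overlap.

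Potassium channels set the resting potential, shape and repetition of electrical signals by letting potassium leave or enter a cell. The voltage-gated families (Kcna to Kcnd, with the ether-a-go-go Kcnh and the M-current Kcnq families) repolarise action potentials, and the silent subunits of Kcnf, Kcng, Kcns and Kcnv join Kcnb channels without forming channels of their own. Inward rectifiers (Kcnj) and two-pore-domain leak channels (Kcnk) hold the resting potential, whereas the calcium- and sodium-activated channels (Kcnma, Kcnn, Kcnt) and the alkaline-activated Kcnu1 add slower currents. The Kcnab, Kcne and Kcnmb genes encode accessory subunits that carry no pore.

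The pore of these channels is known for a short selectivity filter, and its codons are shown because they are what most members share in sequence. A run of 5 codons was searched on the sense strand in frame in the coding sequence, namely ACN, any codon, GGN, TNN and GGN, which reads threonine, any residue, glycine, a residue whose codon begins with T, and glycine. It was found in 65 of the 87 members (74.7%) and in 2.39% of 21747 protein-coding genes. Of the members, 52 held it once, 13 held it in 2 places and 22 did not hold it. Of the 14 Kcnk genes, whose products carry a pair of pore loops per subunit, 11 held it in 2 places, as did Kcna4 and Kcnt1. None of the 12 genes of the accessory subfamilies Kcnab, Kcne and Kcnmb held it, and neither did 6 of 7 Kcnh genes, 3 of 4 Kcnn genes and 1 of 14 Kcnj genes, whose filters these letters do not cover. Each stretch below has 45 bases, with the pattern in capitals, for 5 of the genes to which the results below return: Kcnb2 at chr1:15710031-15710075 (plus strand, mm10), Kcna5 at chr6:126533730-126533774 (minus), Kcnj4 at chr15:79485352-79485396 (minus), Kcnj9 at chr1:172326169-172326213 (minus) and Kcnk10 (minus). Each of the first 4 lies inside 1 coding exon. Both Kcnk10 stretches are spliced across an intron, the first between chr12:98490043-98496214 and the second between chr12:98436333-98440634.
Kcnb2: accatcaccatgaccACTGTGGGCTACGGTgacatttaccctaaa
Kcna5: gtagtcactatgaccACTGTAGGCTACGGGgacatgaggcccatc
Kcnj4: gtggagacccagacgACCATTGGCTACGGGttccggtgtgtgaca
Kcnj9: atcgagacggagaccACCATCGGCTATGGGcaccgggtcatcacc
Kcnk10, first: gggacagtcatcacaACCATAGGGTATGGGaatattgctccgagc
Kcnk10, second: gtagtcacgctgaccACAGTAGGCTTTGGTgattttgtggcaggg
The inward rectifiers Kcnj4 and Kcnj9 were identical at 30 of these 45 bases (66.7%). The voltage-gated Kcnb2 and Kcna5 were identical at 31 (68.9%), whereas the first and second stretches of Kcnk10 were identical at 21 (46.7%).

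In WT brain the members covered a wide range of levels. Per kb of exon length, 55 of 87 reached 1 RPKM and 16 reached 10 RPKM. The highest level was that of Kcnk1 (TWIK-1, a weakly conducting leak channel) with 49.7 ± 2.89 RPKM (SD, n = 3). Also among the highest 10 were the beta subunit Kcnab2 with 30.7 ± 4.88 RPKM and Kcnj10 (Kir4.1, the glial inward rectifier) with 27.7 ± 14.9 RPKM. The spread between mice in Kcnj10 was wide enough that it could not be ordered against Kcnab2 or against the genes that followed. Those were Kcna1 with 24.3 ± 1.56 RPKM, Kcnd2 with 24.0 ± 1.83 RPKM and Kcnc1 with 23.9 ± 9.72 RPKM, whose spreads overlapped. The shaker-type Kcna2 had 20.3 ± 1.71 RPKM, and the inward rectifiers Kcnj4 and Kcnj9 had 19.9 ± 5.47 and 19.7 ± 2.75 RPKM. By plain CPM, which does not account for length, the calcium-activated BK channel Kcnma1 stood first, and 7 of the 10 genes highest by length stayed among the highest 10.

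Loss of Mettl5 was first compared in brain, where the question was whether any member differed between KO and WT. Of the 87 members, 72 had enough counts to be tested, and none passed an edgeR adjusted p of 0.1. The same test called 11 of 17188 genes (0.0640%), all of them higher in KO. At an unadjusted edgeR p under 0.05 there were 16 members, 8 higher and 8 lower in KO (22.2% of those tested, against 11.0% of all genes). Each direction made up 11.1% of the members, against 5.96% higher and 5.01% lower among all genes. The 3 KO libraries lay wholly above or below the 3 WT libraries in 15 members (20.8%, against 16.3% of all genes). Log2 fold changes were above 0 in 38 members (52.8%, against 49.8% of all genes) and below 0 in 34, with a median of 0.04 (all genes, -0.002). The smallest adjusted p of any member was 0.320 (edgeR), the median size of a member's log2 fold change was 0.33, and the median SE was 0.26. DESeq2 called 5 members, 2 higher and 3 lower, at the same threshold (6.94%, against 1.58% of 16987 genes). When no filter on low counts was applied, edgeR called 10 of 83 (12%, against 3.15% of 31780 genes). These 16 genes are therefore described by their values, and not as changed.

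**Figure D1:**
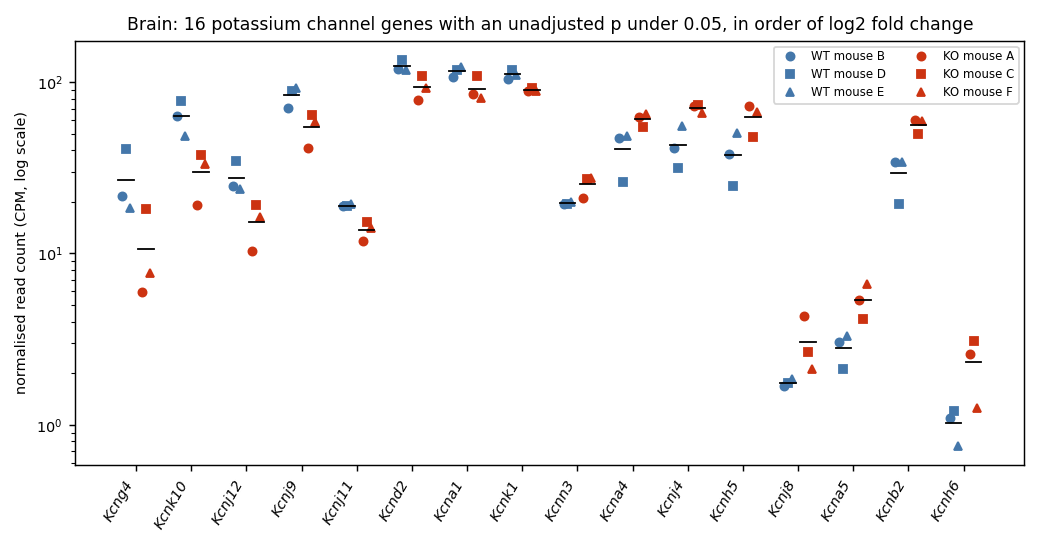
Normalised read count (CPM, log axis) of the 16 potassium channel genes with an unadjusted edgeR p under 0.05 in brain, ordered by log2 fold change from Kcng4 to Kcnh6. Each point is 1 library (WT blue, KO red, the shape marks the mouse) and each black line a group mean (n = 3). The KO points of Kcnb2 sit between 49.8 and 60.6 CPM, above all WT points, and those of Kcnk10 between 19.2 and 37.8 CPM, below all WT points, while in Kcnh5 and Kcna1 the groups overlap.

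Among the voltage-gated channels that form pores, Kcnb2 had the smallest p of all members. Kcnb2 (chr1:15287254-15723750, plus strand, mm10) encodes Kv2.2, a slow delayed rectifier, and is the gene whose filter was shown first above. It had 34.1, 19.6 and 34.4 CPM in WT mice B, D and E and 60.6, 49.8 and 59.1 CPM in KO mice A, C and F. All KO libraries were above all WT libraries, and the log2 fold change was 0.95 (SE 0.22, edgeR unadjusted p = 0.00152, adjusted p = 0.320). DESeq2 gave Kcnb2 an adjusted p of 0.0174, and the alternatives together spanned 2.4e-05 to 0.789.

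The shaker-type Kcna genes lay on both sides of 0. Kcna5 (Kv1.5) was scarce, with 3.03, 2.11 and 3.32 CPM in WT and 5.36, 4.17 and 6.59 CPM in KO, and the groups did not overlap (log2 fold change 0.93, SE 0.28, edgeR adjusted p = 0.355). Kcna4 (Kv1.4, which inactivates fast) had 47.4, 26.0 and 48.7 CPM in WT and 62.5, 54.8 and 65.1 CPM in KO, also without overlap (0.58, SE 0.22, edgeR adjusted p = 0.411). Kcna1 (Kv1.1, the axonal channel) was in the opposite direction, with 108, 118 and 122 CPM in WT and 85.3, 109 and 80.4 CPM in KO. Its groups overlapped because KO mouse C lay inside the WT range (-0.34, SE 0.15, edgeR adjusted p = 0.448). Kcna3 had 7.54, 4.77 and 5.98 CPM in WT and 9.998, 6.40 and 9.95 CPM in KO, with overlap. Kcna2, among the most abundant of the family, had 219, 250 and 257 CPM in WT and 204, 243 and 207 CPM in KO (log2 fold change -0.15, SE 0.14, and from -0.24 without KO mouse C to -0.10 without WT mouse E).

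The Kv3 gene Kcnc1 (Kv3.1, a fast-repolarising channel of rapidly firing neurons) differed widely between mice. It had 164, 332 and 183 CPM in WT and 71.4, 209 and 122 CPM in KO (-0.76, SE 0.40, edgeR adjusted p = 0.508), with KO mouse C inside the WT range. The A-type channel Kcnd2 (Kv4.2) had 119, 135 and 118 CPM in WT and 78.6, 109 and 92.5 CPM in KO. Here all KO libraries lay below all WT libraries (-0.41, SE 0.15, edgeR adjusted p = 0.396).

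Of the 7 ether-a-go-go genes (Kcnh), all tested, 5 had log2 fold changes above 0. Kcnh6 (Erg2) was rare, with 1.10, 1.20 and 0.754 CPM in WT and 2.60, 3.09 and 1.25 CPM in KO, and the lowest KO library was just above the highest WT library (log2 fold change 1.18, SE 0.43, edgeR adjusted p = 0.395). Kcnh5 (Eag2) had 38.1, 24.6 and 50.4 CPM in WT and 72.3, 47.8 and 67.0 CPM in KO, with overlap (0.73, SE 0.26, edgeR adjusted p = 0.395). All 4 tested Kcnq genes had log2 fold changes above 0, between 0.05 and 0.42, and no p under 0.05.

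Among the silent subunits, Kcng4 (Kv6.4) had the lowest log2 fold change of all tested members. It had 21.5, 40.5 and 18.4 CPM in WT and 5.93, 18.2 and 7.65 CPM in KO, and the highest KO library, that of mouse C, was just under the lowest WT library (-1.34, SE 0.45, edgeR adjusted p = 0.392). DESeq2 gave 0.0533, the lowest of its alternatives, of which the highest gave 0.951. Kcnv1 (Kv8.1) lay the other way with 24.4, 9.83 and 25.4 CPM in WT and 40.2, 20.6 and 35.9 CPM in KO, overlapping (0.70, SE 0.37, edgeR adjusted p = 0.510). Kcns2 had 19.0, 14.5 and 26.6 CPM in WT and 29.7, 21.5 and 34.5 CPM in KO, with overlap (0.51, SE 0.25). Kcnf1 had 34.9, 25.8 and 51.8 CPM in WT and 43.4, 47.4 and 49.0 CPM in KO, also overlapping (0.31, SE 0.23).

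**Figure D2:**
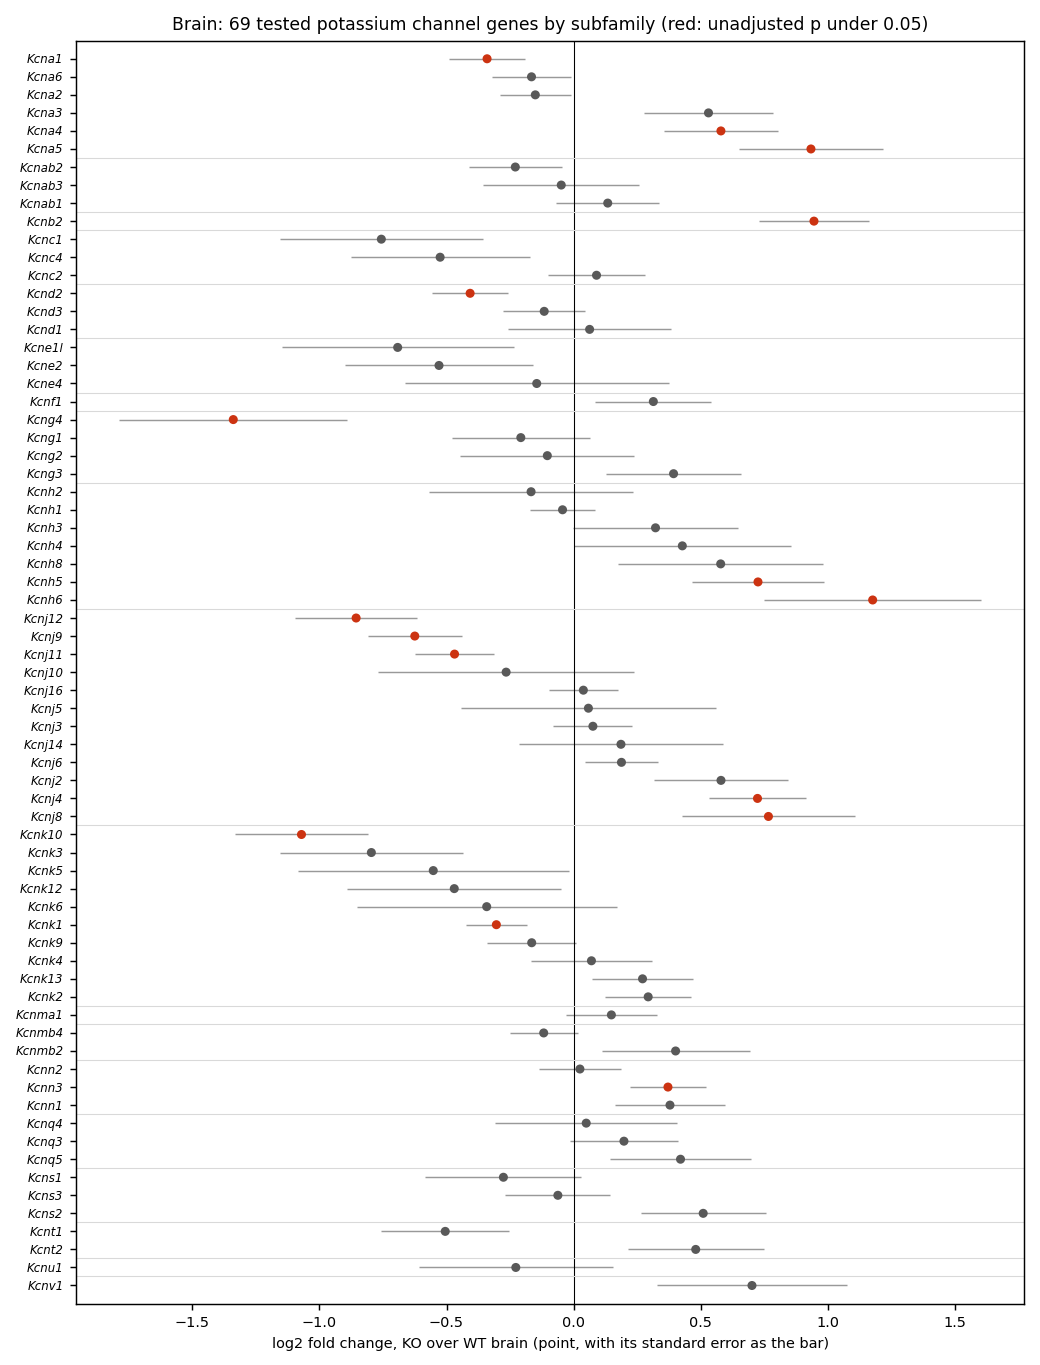
Log2 fold change of KO over WT brain for 69 of the 72 tested potassium channel genes, grouped by subfamily (horizontal axis, point with its edgeR standard error as the bar), with genes of an unadjusted p under 0.05 in red. Points lie on both sides of 0 in most of the larger subfamilies, from -1.34 for Kcng4 to 1.18 for Kcnh6.

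The inward rectifiers (Kcnj) held 5 of the 16 genes, and they pointed in both directions. Kcnj4 (Kir2.3, chr15:79483714-79505241, minus strand, mm10), a strong rectifier of forebrain neurons, had 41.3, 31.8 and 55.2 CPM in WT and 72.6, 73.5 and 65.7 CPM in KO. All KO libraries were higher (log2 fold change 0.72, SE 0.19, edgeR adjusted p = 0.320, DESeq2 0.0795, range over alternatives 0.00255 to 0.868). Kcnj12 (Kir2.2, chr11:61022564-61071131, plus strand, mm10), of the same Kir2 group, was in the other direction, with 24.6, 34.8 and 23.7 CPM in WT and 10.4, 19.1 and 16.3 CPM in KO. All its KO libraries were lower (-0.86, SE 0.24, edgeR adjusted p = 0.354, DESeq2 0.0785, range over alternatives 0.000643 to 0.875). Kcnj2 (Kir2.1), also of that group, had 21.7, 12.6 and 22.3 CPM in WT and 37.7, 22.01 and 24.9 CPM in KO, with overlap (0.58, SE 0.26).

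Kcnj9 (Kir3.3, chr1:172320501-172329318, minus strand, mm10), a subunit of the channels opened by G proteins, had 70.9, 88.8 and 93.1 CPM in WT and 41.1, 64.1 and 58.7 CPM in KO. The groups did not overlap (-0.62, SE 0.19, edgeR adjusted p = 0.355). The other tested subunits of those channels, Kcnj3, Kcnj5 and Kcnj6, had no p under 0.05, with log2 fold changes of 0.08 (SE 0.16), 0.06 (SE 0.50) and 0.19 (SE 0.14). Both genes for the pores of ATP-sensitive channels were among the 16. Kcnj11 (Kir6.2) had 18.9, 18.8 and 19.5 CPM in WT and 11.9, 15.3 and 14.1 CPM in KO, whereas Kcnj8 (Kir6.1, the vascular form) had 1.68, 1.76 and 1.86 CPM in WT and 4.31, 2.66 and 2.11 CPM in KO. Neither pair of groups overlapped, and the directions were opposite (log2 fold change -0.47, SE 0.15, and 0.77, SE 0.34, edgeR adjusted p = 0.378 and 0.453). Without KO mouse A the log2 fold change of Kcnj8 was 0.43. Kcnj10 had 89.4, 241 and 118 CPM in WT and 65.5, 221 and 86.5 CPM in KO, so that the difference between mice of 1 genotype was larger than that between genotypes (-0.27, SE 0.50).

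Of the 10 tested leak channels (Kcnk), 7 had log2 fold changes below 0. Kcnk10 (TREK-2, chr12:98429437-98578310, minus strand, mm10), opened by stretch and lipids, had 63.5, 78.1 and 48.3 CPM in WT and 19.2, 37.8 and 33.3 CPM in KO. All its KO libraries were lower (-1.07, SE 0.26, edgeR unadjusted p = 0.00279, adjusted p = 0.320, DESeq2 0.0146, range over alternatives 1.5e-07 to 0.868). Its nearest relative in function, Kcnk2 (TREK-1, named here after its values were seen), had 47.2, 34.0 and 45.4 CPM in WT and 60.4, 47.3 and 47.5 CPM in KO. There the KO libraries were all higher, the lowest by a small margin (0.29, SE 0.17, edgeR adjusted p = 0.530). Kcnk1 was lower in all KO libraries by a small amount, with 105, 118 and 111 CPM in WT and 89.2, 92.2 and 88.3 CPM in KO (-0.30, SE 0.12, edgeR adjusted p = 0.415). Kcnk3 (TASK-1, an acid-sensitive channel) had 23.3, 41.5 and 27.0 CPM in WT and 9.19, 26.1 and 17.5 CPM in KO, with overlap (-0.80, SE 0.36).

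Of the tested ion-activated channels (Kcnma, Kcnn, Kcnt and Kcnu), Kcnn3 was the 1 with an unadjusted edgeR p under 0.05. Kcnn3 (SK3) had 19.4, 19.5 and 19.9 CPM in WT and 21.2, 27.3 and 27.5 CPM in KO, without overlap (log2 fold change 0.37, SE 0.15, edgeR adjusted p = 0.423). Its relative Kcnn2 (SK2) had 34.1, 34.6 and 38.8 CPM in WT and 29.4, 42.8 and 37.1 CPM in KO, the KO range enclosing that of WT (0.02, SE 0.16). Kcnma1, the BK pore, had 317, 247 and 391 CPM in WT and 366, 316 and 376 CPM in KO (0.15, SE 0.18), and its neuronal beta subunit Kcnmb4 had 54.5, 46.7 and 57.9 CPM in WT and 47.5, 51.2 and 48.0 CPM in KO (-0.12, SE 0.13, and from -0.21 without WT mouse D to -0.04 without WT mouse E). For neither was a difference detectable. The sodium-activated Kcnt1 (Slack) had 79.7, 109 and 77.5 CPM in WT and 41.4, 85.2 and 61.1 CPM in KO, with mouse C inside the WT range (-0.51, SE 0.25, edgeR adjusted p = 0.484). Kcnu1, a channel of sperm, was near 1 CPM in all 6 libraries (0.935 to 1.51 CPM).

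The accessory subunits within the family held no gene with an unadjusted edgeR p under 0.05. Kcnab2 had 175, 236 and 231 CPM in WT and 160, 226 and 163 CPM in KO, with overlap (log2 fold change -0.23, SE 0.18, and from -0.41 without KO mouse C to -0.14 without KO mouse A). The most abundant Kcne gene by length, Kcne1l, had 1.998, 4.11 and 2.26 CPM in WT and 2.52, 1.94 and 0.791 CPM in KO, also overlapping (-0.69, SE 0.46). Among 18 further genes whose products bind potassium channels but carry other symbols, 16 were tested and none passed, with 8 log2 fold changes on each side of 0. Of these, 3 (18.8%) had an unadjusted edgeR p under 0.05 and were higher in KO, against 5.96% of all genes, and none was lower. Lrrc55, an accessory subunit of BK channels, had 14.6, 9.53 and 14.1 CPM in WT and 22.03, 23.2 and 21.3 CPM in KO, without overlap (0.80, SE 0.19, edgeR adjusted p = 0.320). Its adjusted p ran from 0.00693 to 0.789 over the alternatives, of which 2 of 12 passed. Dpp10, which binds Kv4 channels such as Kcnd2, had one of 0.38 on the log2 scale (SE 0.16, edgeR adjusted p = 0.441), and Akap9, a scaffold that binds Kcnq1, one of 0.41 (SE 0.17, edgeR adjusted p = 0.432). Dpp10 was at 0.25 without WT mouse D, and Akap9 at 0.27 without KO mouse A. All 11 tested pumps and cotransporters of potassium had log2 fold changes below 0, with none at an unadjusted p under 0.05, and of the 4 HCN channel genes 1 had such a p, higher in KO.

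Within a genotype the brain libraries differed as a set, and many members differed with the mouse. The coefficient of variation over the 3 mice had a median of 24.2% in WT and 21.3% in KO among tested members. It was 54.0% in WT and 68.0% in KO for Kcnj10. Mice D and C were picked out after the values were seen. In 23 of 72 members (31.9%, against 23.2% of all genes) mouse D was the highest WT library and mouse C the highest KO library. These included Kcnc1, Kcng4, Kcnj10, Kcnj12, Kcnk3, Kcnk10 and Kcnt1. In 17 members (23.6%, against 21.3% of all genes) both mice were the lowest of their group, among them Kcna4, Kcna5, Kcnb2, Kcnh5, Kcnj2 and Kcnv1. For Kcng4 the highest library held 6.83 times the level of the lowest, and for Kcnk1 1.33 times. Leaving out mouse C gave log2 fold changes of -1.98 for Kcng4, -1.27 for Kcnk10 and 1.03 for Kcnb2, and leaving out mouse D gave -0.91, -0.89 and 0.72 in the same order. The direction was the same in each case. The groups of these genes did not overlap, so leaving out 1 mouse could hardly have turned it. No edgeR adjusted p was under 0.1. Other values moved by a larger ratio. Without WT mouse D the log2 fold change was -0.38 for Kcnc1, -0.51 for Kcnk3, -0.33 for Kcnt1, 0.34 for Kcna4, 0.35 for Kcnj2, 0.37 for Kcnv1, 0.32 for Kcns2, 0.10 for Kcnf1 and -0.31 for Kcne1l. Without KO mouse A it was -0.46 for Kcnc1, -0.49 for Kcnk3, -0.28 for Kcnt1 and 0.32 for Kcnj2. Without KO mouse C it was -1.23 for Kcnc1 and -0.79 for Kcnt1, further from 0 than with all mice, whereas the values without D or A lay nearer to 0.

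**Figure D3:**
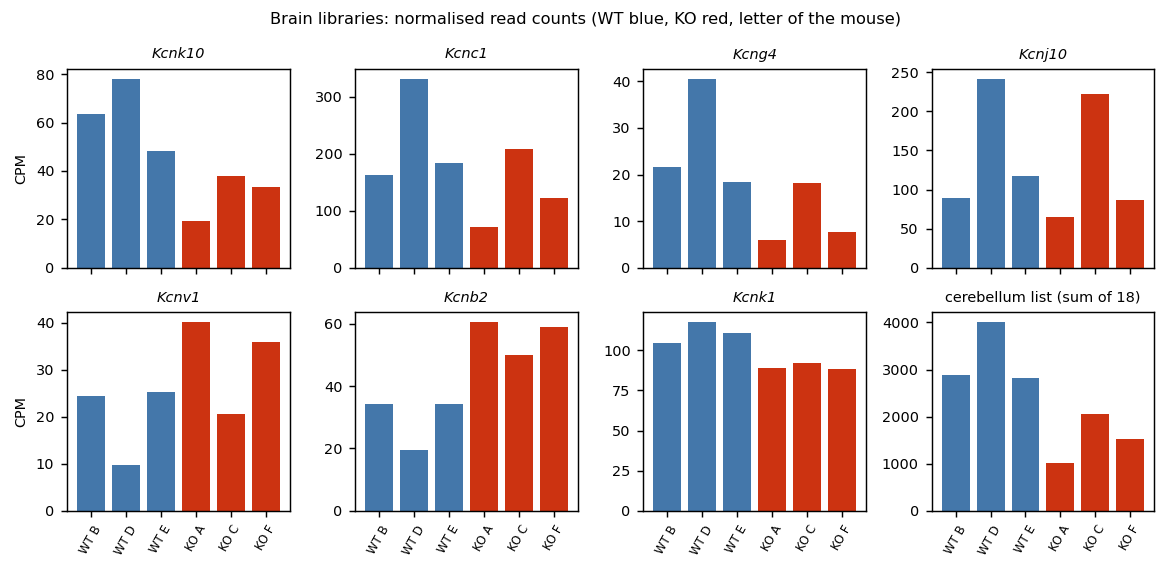
Normalised read count (CPM, linear axes from 0) in each brain library for 7 potassium channel genes and for the sum of 18 cerebellar marker genes, with WT in blue and KO in red. Each bar is 1 mouse. Mouse D is the highest WT bar and mouse C the highest KO bar in Kcnk10, Kcnc1, Kcng4, Kcnj10, Kcnk1 and the cerebellar sum, and both are the lowest of their group in Kcnv1 and Kcnb2.

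Markers of brain regions differed between the genotypes in the same libraries. Of 18 cerebellar markers, none of them a potassium channel gene, all were below 0, 16 with an unadjusted edgeR p under 0.05, and in 17 the groups did not overlap (median log2 fold change -1.48). Their summed level was 2893, 4012 and 2817 CPM in WT mice B, D and E and 1017, 2052 and 1518 CPM in KO mice A, C and F. Of 17 olfactory bulb markers, 16 were above 0 (median 1.66), 13 with an unadjusted edgeR p under 0.05, and 8 passed the adjusted threshold and rose in KO. Those 8 were among the 11 genes called in brain. The lists were chosen with earlier results of these data known, so this overlap is not independent of the calls. All 12 striatal markers were above 0 (median 0.59), 3 with such an unadjusted p, and all 13 choroid plexus markers were below 0 (median -0.93), 9 with one. None of the cerebellar, striatal or choroid plexus markers passed the adjusted threshold. Striatal markers summed to 423 to 753 CPM in WT and 756 to 1089 CPM in KO, choroid plexus markers to 594 to 843 CPM in WT and 359 to 439 CPM in KO, and olfactory bulb markers to 345 to 496 CPM in WT and 401 to 596 CPM in KO. No marker of these 4 lists was at 0 in all brain libraries. In bulk tissue fewer cells of a type, or less of a region in the sample, and less RNA per cell cannot be told apart. The part of these marker differences in the values of Kcnk10, Kcnb2 and the other members was not tested.

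For the other marker lists the medians lay between -0.58 and 0.06. The 12 general neuronal markers had a median log2 fold change of -0.04 and summed levels of 5052 to 5833 CPM in WT and 5062 to 5584 CPM in KO. The 12 astrocyte markers had a median of -0.30 with sums of 3951 to 5255 CPM in WT and 3659 to 5054 CPM in KO, highest in mice D and C, as was Kcnj10. The medians were -0.09 for 12 oligodendrocyte, 0.06 for 10 microglial, -0.34 for 10 endothelial, -0.27 for 10 mural, -0.38 for 9 tested hippocampal and -0.05 for 10 cortical markers, and 6 hepatocyte markers tested in brain had a median of -0.58. The summed ranges of WT and KO overlapped for neurons, astrocytes and oligodendrocytes. Single markers were less even. Of the 12 astrocyte markers 11 were below 0, 3 of them with an unadjusted edgeR p under 0.05. Of the 12 neuronal markers 7 were below 0, 2 of them with such a p. No marker of these lists was higher in KO at that p, and no oligodendrocyte marker had one. Among all genes 5.01% were lower at that p.

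The remaining 15 members had too few counts in brain to be tested. Kcna7, Kcnj1, Kcnk16 and Kcnmb3 had no count in any of the 6 libraries, which allows up to 3 counts over the libraries of a group. A further 5 (Kcnj15, Kcne1, Kcna10, Kcne3 and Kcnk18) had at most 3 counts in every library. The other 6, Kcnk7, Kcnv2, Kcnn4, Kcnk15, Kcnq1 and Kcnmb1, reached between 4 and 18 counts in their highest library.

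Liver served as the contrast, being a tissue with little of this family. Only 4 members reached 1 RPKM in WT liver, 43 had at most 3 counts in every liver library, and 14 had none. Kcnk5 (TASK-2, a leak channel of epithelia that opens in alkaline surroundings) led with 10.8 ± 1.19 RPKM (SD, n = 3), followed by Kcnn2 with 4.61 ± 1.16 RPKM. Lower still was Kcnj8 with 1.14 ± 0.19 RPKM. The highest 10 also held Kcnk6, Kcnn1, Kcna2, Kcnj10 and Kcnj16, with means from 0.864 down to 0.457 RPKM.

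Of the 18 members tested in liver, none passed an edgeR adjusted p of 0.1, nor did any of the 14075 genes tested (0%). At an unadjusted edgeR p under 0.05 there was 1 member (5.56%, against 7.33% of all genes), and DESeq2 called that 1 as well (1.10% of 15516 genes). This was Kcnk5 (chr14:20140057-20181809, minus strand, mm10). It had 40.0, 32.2 and 38.0 CPM in WT mice B, D and E and 16.8, 26.9 and 18.04 CPM in KO mice A, C and F. All KO libraries lay below all WT libraries, which was so for 6.44% of all genes, and the log2 fold change was -0.84 (SE 0.19, edgeR unadjusted p = 0.00174, adjusted p = 0.396). DESeq2 gave Kcnk5 an adjusted p of 0.0301, and the alternatives together spanned 0.000171 to 0.985. The share of mitochondrial ribosomal RNA, lower in all KO liver libraries, moved with the genotype here too, and with mitochondrial genes left out the log2 fold change of Kcnk5 was -0.83 (edgeR adjusted p = 0.385). In brain, where libraries were scaled separately, Kcnk5 stood at 0.955 to 2.81 CPM in WT and 0.575 to 1.45 CPM in KO (-0.55, SE 0.53).

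**Figure D4:**
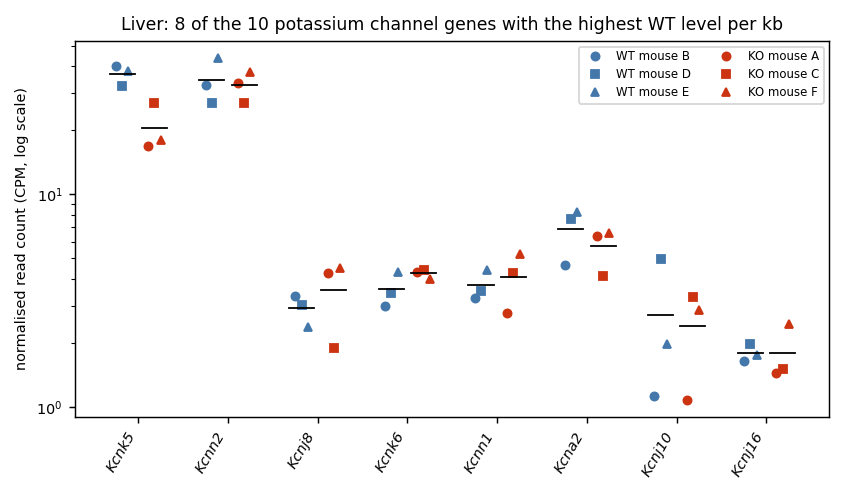
Normalised read count (CPM, log axis) in liver of 8 of the 10 potassium channel genes with the highest WT level per kb of exon, in that order, with each point 1 library (WT blue, KO red) and each black line a group mean (n = 3). Only in Kcnk5 do the groups separate, with WT between 32.2 and 40.0 CPM and KO between 16.8 and 26.9 CPM, and in the other 7 genes they overlap.

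Because Kcnk5 carried the one separation seen among the members tested in liver, its pore and promoter sequences are shown. Its 2 filter stretches lie on the minus strand of chromosome 14 (mm10), each spliced across an intron, the first between chr14:20145100-20146522 and the second between chr14:20142456-20144677, with the pattern in capitals.
Kcnk5, first: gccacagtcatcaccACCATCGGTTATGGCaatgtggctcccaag
Kcnk5, second: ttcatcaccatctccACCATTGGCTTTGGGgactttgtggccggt
The first stretch was identical to the first of Kcnk10 at 34 of 45 bases (75.6%), and the second to the second of Kcnk10 at 31 (68.9%). The 250 bases before the start of Kcnk5 in RefSeq (GRCm38.p6, chr14:20181783-20182032, minus strand) held GGGCGG, the core of the Sp1 box, at 3 places and CCGCCC, the same letters on the other strand, at none. Those of Kcnj4 (chr15:79505242-79505491, minus strand) held it at 3 places over both strands, and are given beside it because Kcnj4 lay the other way in brain. Matches are in capitals.
Kcnk5 promoter: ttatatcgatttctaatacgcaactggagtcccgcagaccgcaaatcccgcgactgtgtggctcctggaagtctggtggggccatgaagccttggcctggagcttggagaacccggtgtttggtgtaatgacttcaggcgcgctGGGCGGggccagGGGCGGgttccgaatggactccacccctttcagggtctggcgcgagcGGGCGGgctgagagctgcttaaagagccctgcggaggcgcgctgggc
Kcnj4 promoter: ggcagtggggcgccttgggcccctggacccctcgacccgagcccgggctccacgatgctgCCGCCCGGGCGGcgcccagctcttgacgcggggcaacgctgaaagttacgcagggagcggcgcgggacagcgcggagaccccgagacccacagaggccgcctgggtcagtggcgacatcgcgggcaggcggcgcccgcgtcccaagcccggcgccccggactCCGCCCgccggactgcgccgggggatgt
Neither held TATAAA or CCAAT on either strand. RefSeq promoters were matched for 62 of the 87 members, 82 promoters in all. Of these, 46.3% held GGGCGG on either strand (32.7% of 32851 promoters of the same length), 2.44% held TATAAA (12.4%) and 24.4% held CCAAT (33.8%). These are descriptions of letters in a window, and none was tested against the expression values.

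No other member had an unadjusted edgeR p under 0.05 in liver. Kcnn2 had 32.6, 26.8 and 43.8 CPM in WT and 33.3, 27.0 and 37.8 CPM in KO, with overlap (log2 fold change -0.07, SE 0.20). Kcnj2 had 1.24, 1.47 and 0.454 CPM in WT and 3.01, 1.40 and 1.51 CPM in KO (0.90, SE 0.50), and Kcnt2 had 1.13, 6.40 and 1.53 CPM in WT and 1.14, 2.07 and 0.782 CPM in KO (-1.17, SE 0.71). The Kcnt2 difference rested on WT mouse D: without it the log2 fold change was 0.003. For Kcnj2 it was 0.47 without KO mouse A. Kcnj15 (0.77, SE 0.62, and 0.19 without KO mouse F), Kcnk6 (0.25, SE 0.24, and from 0.13 without WT mouse B to 0.40 without WT mouse E) and Kcnma1 (-0.48, SE 0.47) were also among the 8 with the smallest p. Of the 69 members not tested in liver, the highest count in any library was 12. Among the 18 binding partners, 5 were tested in liver, and Akap9 was the 1 with an unadjusted p under 0.05 (-0.72, SE 0.28, edgeR adjusted p = 0.637). Its adjusted p ran from 0.00292 to 0.985 over the alternatives, of which 1 of 12 passed.

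The genotype effect was then compared between the tissues in 1 fit of all 12 libraries. None of the 74 members tested passed an edgeR adjusted p of 0.1, nor did any of 18944 genes (0%), and 2 members had an unadjusted p under 0.05 (2.7%, against 10.6% of all genes). The difference of the effects, brain minus liver, was -3.28 (SE 1.23, edgeR adjusted p = 0.378) for Kcnj5 and -1.08 (SE 0.50, edgeR adjusted p = 0.467) for Kcnk10. Kcnj5 had at most 0.365 CPM in any liver library, so its value rests on very few counts, and it ran from -5.58 without mouse E to -2.44 without mouse B. The Kcnk10 value was -0.67 without mouse D. Next by p were Kcnn3 (1.16, SE 0.49), Kcnmb2 (-3.04, SE 1.24), Kcnt2 (1.60, SE 0.79) and Kcna4 (3.50, SE 1.75). Kcnmb2 and Kcna4 had at most 1 count in any liver library, so their values rest on almost no liver reads, and Kcnn3 had at most 6 counts there. The Kcnt2 value was 0.23 without mouse D. With mouse as a replicate block, so that both organs of an animal are paired, again no member passed, whereas 68 genes did. The unadjusted p of Kcnk10 was then 0.0526, no longer under 0.05, and that of Kcnj5 was 0.0453. With the block 3 of 74 members had an unadjusted edgeR p under 0.05, against 1584 of 18944 genes. Kcnj5 and Kcnq5 (named after its values were seen) were among the 3.

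Brain and liver of the WT mice differed in nearly the whole family. Of 73 members tested, 67 (91.8%) were higher in brain and 4 (5.48%) lower, at an edgeR adjusted p under 0.1 with a log2 fold change over 1 in size. Of all 17694 genes tested, 60.9% were called, 35.2% higher and 25.8% lower. The members' fitted log2 fold changes had a median of 7.79, against 0.16 for all genes, and of 6.35 with the 15 tested members that had no WT liver count set to the lower bound that 3 counts allow. A member counts as tested here if either tissue has the counts, so genes with high brain levels could pass through brain alone.

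**Figure D5:**
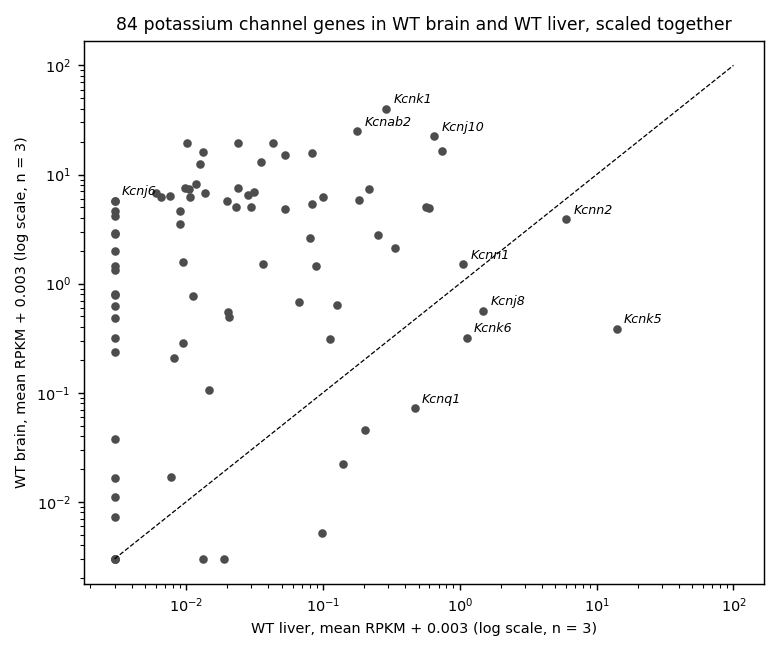
Mean level per kb of exon length (RPKM + 0.003, log axes) of 84 of the 87 potassium channel genes in WT liver (horizontal) and WT brain (vertical), n = 3 each, all 6 libraries scaled together, with the dashed line marking equal levels. Most points lie far above the line, and Kcnn2 and Kcnn1 lie close to it. Kcnk5, Kcnq1, Kcnk6 and Kcnj8 lie below it, as do Kcnj15, Kcne3, Kcnn4, Kcna7 and Kcnmb3, whose counts were too few to be tested.

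The 4 members lower in brain were Kcnk5 (log2 fold change, brain over liver, -5.16, SE 0.36, edgeR adjusted p = 3.8e-07), Kcnq1 (-2.70, SE 0.49, edgeR adjusted p = 0.000484), Kcnk6 (-1.82, SE 0.34, edgeR adjusted p = 0.000561) and Kcnj8 (-1.40, SE 0.32, edgeR adjusted p = 0.00223). Kcnq1, an epithelial and cardiac channel, had 1.68, 1.41 and 2.64 CPM in WT liver and 0.157, 0.364 and 0.326 CPM in WT brain when the libraries of both tissues were scaled together, as in this comparison. On that scale Kcnk6 (TWIK-2) had 3.89, 4.47 and 5.57 CPM in WT liver and 1.67, 1.01 and 1.26 CPM in WT brain, and Kcnj8 had 4.36, 3.89 and 3.08 CPM against 1.36, 1.42 and 1.51 CPM. In all of these genes the tissues did not overlap. DESeq2 called 6 members lower in brain, and edgeR with no filter on low counts called 7. Kcnj15, Kcne3 and Kcnn4 had too few counts for the main test. Their WT means were also lower in brain, at 0.00215, 0.0424 and 0.0192 RPKM, against 0.0960, 0.199 and 0.137 RPKM in liver. The SK channels Kcnn2 (-0.62, SE 0.19, edgeR adjusted p = 0.0132) and Kcnn1 (0.52, SE 0.27, edgeR adjusted p = 0.1003) were the 2 tested members that were not called. Both had a fold below the minimum, and the adjusted p of Kcnn1 was also just above the threshold.

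At the other end were members with no count in any WT liver library. Against the limit of 3 counts over the WT liver group, Kcnj6 (Kir3.2) was at least 589-fold higher in WT brain, Kcng4 at least 299-fold higher, Kcns2 at least 220-fold higher and Kcnj11 at least 209-fold higher, on the same scale. Kcnj4 and Kcnb2 had at most 2 counts in any WT liver library, and no fold is given for them. For Kcnk1, which had 2, 11 and 12 counts in WT liver, the log2 fold change was 7.16 (SE 0.38). In each of these genes all WT brain libraries lay above all WT liver libraries, as was the case for 43.2% of all genes.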

How the data were processed

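Total RNA from brain and liver of 3 WT and 3 KO mice was sequenced as single-end reads from stranded libraries (SMARTer kit of Takara). According to the study's methods and the submitters' processing notes, the authors trimmed reads with Trimmomatic, aligned them to mm10 with STAR 2.7.3a and counted them per gene over exons with featureCounts on the reverse strand. The deposited values are raw whole-number counts per gene, with exon lengths. The KO and WT libraries of each tissue were compared with edgeR 4.0.16 (R 4.3.3; TMM scaling, filterByExpr, robust quasi-likelihood F test) over all genes, with Benjamini-Hochberg adjustment and a threshold of 0.1. SE is the log2 fold change divided by the root of F. CPM were scaled by TMM within a tissue (over both tissues where WT brain and liver were compared), and RPKM are CPM per kb of exon length. DESeq2 1.42.0 and the other alternatives are given in the closing section. Genes were matched to GENCODE vM21 for biotype and coding sequence, and promoters came from RefSeq. The scripts were tested on simulated data.

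Members and lists were chosen with earlier results of these data known. Named are the 20 members with the smallest p in brain and the 8 in liver, the 6 for the tissue difference, the 10 highest WT levels per tissue, the highest WT brain level of each subfamily, partners with p under 0.05, and Mettl5. Some of these are not reported here. Other members were named after their values were seen. Within a tissue the labels give each library as a separate mouse. Counting limits of 3 counts cover counting error only.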

Additional observations from a re-analysis of the deposited data

How the results depend on the processing

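In brain 0 of 72 members passed with edgeR, 5 of 72 with DESeq2 and 10 of 83 without a filter on low counts. In liver the counts were 0 of 18, 1 of 24 and 1 of 73. The DESeq2 calls in brain were Kcnb2, Kcnj4, Kcnk10, Kcnj12 and Kcng4, and without the filter Kcnj9, Kcnt1, Kcna4, Kcnk3, Kcnj2 and Kcnh5 came in while Kcng4 dropped out. The cause was not tested. Over all brain genes edgeR called 11 of 17188, DESeq2 269 of 16987 and the unfiltered fit 1000 of 31780, and over all liver genes 0 of 14075, 171 of 15516 and 443 of 27130. A covariate for Y-linked transcripts gave 10 brain and 82 liver genes. RLE size factors, mitochondrial genes left out, that covariate, all 12 libraries in one fit, an adjusted p under 0.05 and leaving out each mouse gave 0 members in both tissues. The members' median on the log2 scale ran from -0.0404 to 0.0597 in brain and from -0.190 to -0.0297 in liver when a mouse was left out. Some differences turned sign in that way: Kcnj10 in brain ran from -0.980 to 0.259, Kcnma1 from -0.00870 to 0.330 and Kcnn2 from -0.108 to 0.156, and Kcnt2 in liver from -1.64 to 0.00324. Of 36 genes named for brain, 33 kept their sign under every alternative, and of 8 for liver 7. Many of these genes were named for a small p in the same data, which makes a kept sign likely. No share over all genes was computed beside it.

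No paired analysis was possible between KO and WT because the groups of a tissue share no mouse letter. Pairs of mice are mentioned in the study text, and nothing in the labels ties a KO animal to a control. With mouse as a replicate block, the tissue difference gave 0 members and WT brain against liver 70, against 71 without the block. The labels give the pairing, since liver and brain of a letter come from the same animal. The other alternatives gave 70 to 75 members. Libraries of 3 mice a group and the low member counts in liver limit what could be detected there.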
